A study of Mus musculus with 8 samples.

Results

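The 9 genes described here encode transcription factors that pattern embryonic mesenchyme, the loose connective tissue from which limb, face, body wall and organ stroma form: Six2, Msx1, Msx2, Prrx1, Twist1, Alx4, Dlx5, Tbx4 and Foxf2. They are 9 of the 20284 named genes with a probe on the arrays, and 11 of the 55681 distinct probes belong to them. A probe was taken as theirs when its RefSeq accession carried 1 of these symbols. The genes were picked with the signals of all 4 liver samples known. Their differences are therefore given as a description, and counts of calls among them stand only beside the same share over all genes. Of the 9 genes, 8 passed the filter on dim probes, which required both arrays of 1 or more samples to read well above background. Dlx5 did not.

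These factors sit downstream of the signals that divide the embryo into regions. Msx1 and Msx2 are homeodomain repressors induced by bone morphogenetic proteins (BMPs) in limb bud, skull and facial mesenchyme. Prrx1 and Alx4 are paired-type homeodomain factors of limb and craniofacial mesenchyme, and Dlx5 is a distal-less homeodomain factor of branchial arches and bone. Twist1 is a basic helix-loop-helix factor that keeps mesenchyme undifferentiated. Six2 is a sine oculis family homeodomain factor, best known for maintaining nephron progenitors and also made in facial and limb mesenchyme. Tbx4 is a T-box factor of hindlimb and lung mesenchyme. Foxf2 is a forkhead factor of gut and palate mesenchyme that responds to Hedgehog signals. The liver has its own mesenchyme, the septum transversum and the stellate cells derived from it, together with a mesothelial cover.

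RNA came from livers of C57BL/6J mice that were wild type or carried a knockout of Btg2 (TIS21, PC3), a gene that restrains cell growth. The adult wild-type and adult knockout samples came from 10-week-old males, both fasted for 20 h. The fetal wild-type and fetal knockout samples were pools of livers from several embryonic day 13.5 fetuses of a litter, of both sexes. Each of the 4 samples was hybridised to 2 arrays as technical duplicates, so every standard error (SE) below measures array error and none measures the spread between animals or litters. The knockout allele and the number of adult mice are not described in the labels. Whole livers were used, so fewer cells of a type and less RNA per cell cannot be told apart.

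The 250 bases upstream of the start site are printed for the 5 genes whose fetal differences passed the call described further on, so that 3 lower genes can be set beside 2 higher ones. They are RefSeq sequences on assembly GRCm38.p6, read in the direction of transcription. Capitals mark every match, on either strand, to the TATA box TATAAA, the CCAAT box, the GC box GGGCGG or the E box CANNTG.
Six2 (chr17:85688255-85688504, minus strand): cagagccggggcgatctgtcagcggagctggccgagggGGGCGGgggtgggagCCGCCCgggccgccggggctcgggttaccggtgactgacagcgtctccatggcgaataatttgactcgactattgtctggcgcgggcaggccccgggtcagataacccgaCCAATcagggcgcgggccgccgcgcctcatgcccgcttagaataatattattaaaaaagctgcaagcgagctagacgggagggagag
Msx1 (chr5:37824586-37824835, minus strand): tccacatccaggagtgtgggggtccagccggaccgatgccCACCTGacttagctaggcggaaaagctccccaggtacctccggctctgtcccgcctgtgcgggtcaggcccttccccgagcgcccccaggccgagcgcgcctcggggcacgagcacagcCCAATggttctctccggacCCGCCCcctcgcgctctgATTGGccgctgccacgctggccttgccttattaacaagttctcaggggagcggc
Twist1 (chr12:33957421-33957670, plus strand): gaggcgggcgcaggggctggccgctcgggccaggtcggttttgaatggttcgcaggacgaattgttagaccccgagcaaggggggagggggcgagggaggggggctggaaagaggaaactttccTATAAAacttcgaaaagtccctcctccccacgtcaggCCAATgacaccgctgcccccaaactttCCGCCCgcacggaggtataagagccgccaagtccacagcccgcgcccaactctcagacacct
Tbx4 (chr11:85896515-85896764, plus strand): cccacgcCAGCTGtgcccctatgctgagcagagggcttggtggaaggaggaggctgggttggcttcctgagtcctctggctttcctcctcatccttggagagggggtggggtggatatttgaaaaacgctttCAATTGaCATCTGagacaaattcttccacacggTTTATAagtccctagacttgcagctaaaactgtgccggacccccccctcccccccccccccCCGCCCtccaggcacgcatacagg
Foxf2 (chr13:31625566-31625815, plus strand): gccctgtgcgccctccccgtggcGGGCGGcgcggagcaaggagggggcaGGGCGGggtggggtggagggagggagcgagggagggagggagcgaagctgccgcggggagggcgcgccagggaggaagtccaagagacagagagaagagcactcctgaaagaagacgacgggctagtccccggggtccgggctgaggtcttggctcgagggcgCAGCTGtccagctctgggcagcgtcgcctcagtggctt

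The promoters of all 3 lower genes held CCAAT, at -87 in Six2, at -91 and -54 in Msx1 and at -89 in Twist1, counted from the start site. Neither higher gene had that motif in its window. Of the genes that were not called, Msx2 had it at -124 and Prrx1 lacked it. CCAAT occurs in 33.8% of the 32851 promoter windows of this length, so the difference is a description of 5 sequences. TATAAA was at -126 in Twist1 and at -85 in Tbx4, against 12.4% of all windows. GGGCGG, present in 32.7% of windows, was in all 5. CANNTG, present in 66.2%, was in Msx1, Tbx4 and Foxf2. The windows were GC-rich, from 58.4% in Tbx4 to 71.6% in Foxf2, against a median of 52.4% over all windows. The homeodomain core TAATTA, the forkhead motif GTAAACA and the T-box motif GGTGTGA were searched as well and were in none of the 5. TAATTA, found in 4.84% of all windows, was in the windows of Msx2 and Prrx1. Sequences were matched for 7 of the 9 genes by symbol. Alx4 and Dlx5 were not among them.

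All 8 arrays lay on 1 slide, read in 1 scan. Each group lay in a slide column of its own, so column and group cannot be told apart. The 75th percentile of processed signal spanned 132 to 171 for adult and 277 to 333 for fetal hybridisations. From 38.5% to 42.3% of probes were well above background on the adult arrays. On the fetal arrays the share was 48.7% to 49.8%, except on the first wild-type array, where it was 61.1%. Over the probes that stood for genes passing the filter on dim probes, duplicate arrays correlated at 0.992 to 0.997. The SD of their log2 difference over these probes ran from 0.24 in the fetal knockout to 0.43 in the adult wild type. The targeted gene went with the labels: Btg2 gave processed signals of 149 and 158 in adult wild type and 2071 and 2080 in fetal wild type, against 4.54 to 8.02 on the 4 knockout arrays, where it was not well above background. The lowest signal that counted as well above background was 22.7 to 29.3 on adult and 13.9 to 18.2 on fetal arrays.

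Six2 was the brightest of the 9 genes' probes in the fetal wild-type pool and was far dimmer in the fetal knockout pool. Its processed signal was 315 and 338 on the fetal wild-type arrays and 23.6 and 29.9 on the fetal knockout arrays, all 4 well above background. The adult wild-type arrays gave 5.26 and 5.71 and the adult knockout arrays 5.17 and 6.97, none above background. A second Six2 probe with the same accession gave 3.03 to 6.04 on the 8 arrays and was above background on none, so the gene's 2 probes disagreed and its level rests on 1 of them.

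Msx1 showed the same order in the fetal samples, but it was also measured in the adult knockout liver. The fetal wild-type arrays gave 188 and 176 and the fetal knockout arrays 30.8 and 32.1. The adult knockout gave 45.2 and 35.8, well above background, while the adult wild type gave 22.2 and 18.4 and was not. Msx2, its paralog, was dim throughout: 54.7 and 47.7 in fetal wild type, then 28.8 and 24.5 in the fetal knockout, 33.3 and 30.2 in adult knockout and 42.3 and 12.6 in adult wild type. The adult duplicates of Msx2 differed in that only the first array of each pair was above background, so its adult level is poorly set.

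Twist1 was above background on the fetal arrays alone. The wild-type pool gave 108 and 97.0 and the knockout pool 31.1 and 30.2, against 4.80 to 12.4 on the adult arrays. Prrx1 had 2 probes that ordered the samples alike. The brighter gave 138 and 106 in the wild-type pool and 42.1 and 40.9 in the knockout pool. The dimmer gave 48.7 and 51.2 in the wild type and 19.0 and 20.8 in the knockout, and neither probe was above background on any adult array, where the brighter read 4.80 to 18.3.

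Tbx4 and Foxf2 ran the other way. Tbx4 gave 51.9 and 47.4 in the wild-type fetal pool, and 179 and 180.0 in the knockout pool, with 5.27 to 6.97 on the adult arrays and none of those above background. Foxf2 was well above background in the fetal knockout pool alone, at 32.2 and 33.2, while the fetal wild-type arrays gave 13.5 and 7.96 and the adult arrays 4.95 to 6.30. The lowest signals that were well above background on those knockout arrays were 17.4 and 18.2.

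Alx4 was the one gene of the 9 that was well above background on all 8 arrays. Its signals were 36.5 and 40.3 in fetal wild type, then 36.8 and 36.0 in the fetal knockout, 44.4 and 46.8 in adult wild type and 67.3 and 64.6 in adult knockout. Dlx5 was above background on 2 arrays of different samples only, at 51.7 on the first adult wild-type array and 23.2 on the first fetal wild-type array. The duplicates of those arrays read 7.50 and 4.96, and the other 4 arrays read 5.01 to 8.84, so no level of Dlx5 held across a pair of duplicates.

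**Figure D1:**
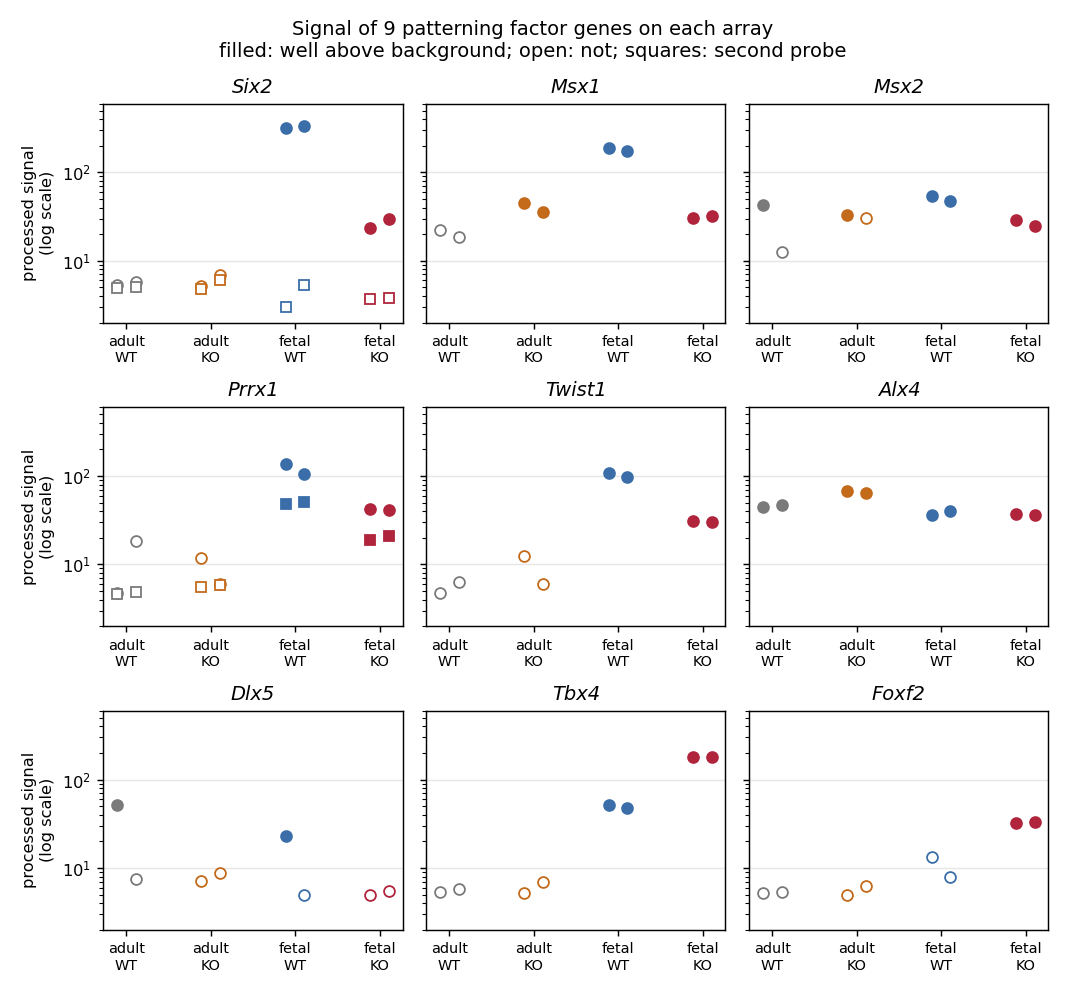
Processed signal (vertical axis, log scale, arbitrary scanner units) of each of the 9 genes on the 8 arrays, grouped on the horizontal axis by sample; filled symbols are well above background, open ones are not, and squares are second probes of Six2 and Prrx1. Six2, Msx1, Twist1 and Prrx1 sit highest in the fetal wild-type pool, Tbx4 and Foxf2 in the fetal knockout pool (Tbx4 at 179 and 180.0), and Alx4 between 36.0 and 67.3 throughout.

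Between the fetal pools, Six2, Msx1 and Twist1 were lower in the knockout and Tbx4 and Foxf2 were higher. These differences are on the log2 scale after each array was set to its own 75th percentile, knockout minus wild type, with limma's SE from 2 arrays a sample. Six2 differed by -3.37 ± 0.23, which is 10.4-fold lower. Msx1 differed by -2.29 ± 0.17, or 4.89-fold lower, and Twist1 by -1.49 ± 0.36, or 2.81-fold lower. Tbx4 differed by 2.10 ± 0.21, which is 4.28-fold higher. For Foxf2, whose wild-type signal was not above background, the knockout was at least 2.56-fold higher. Such a bound sets the measured mean against the lowest signal of any probe that was well above background on each array of the dim sample. Where the probe's own value was higher, that value was used instead. The lowest signal is no strict limit. Msx2 read 30.2 on the second adult knockout array and was not above background, though the lowest signal there was 29.3. The bounds are therefore not strict minima and hold for the reported processing.

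Prrx1, Msx2 and Alx4 did not pass. Prrx1 differed by -1.30 ± 0.61 on its brighter probe and by -1.09 ± 0.24 on the other. The larger SE of the brighter probe goes with its adult wild-type duplicates, which read 4.80 and 18.3 and share in the fit's estimate of spread. With the 4 fetal arrays fitted alone, a setting added after the data had been seen, its difference was -1.30 ± 0.14 and passed, and it also passed with median scaling and without either adult wild-type array. Msx2 differed by -0.70 ± 0.49, and its adult wild-type duplicates, at 42.3 and 12.6, share in that SE as well. On the 4 fetal arrays alone it differed by -0.70 ± 0.18, still less than 2-fold. Alx4 differed by 0.17 ± 0.14. In all 8 genes the arrays of the fetal pools did not overlap, Alx4 by a small margin, but the same held for 71.3% of all genes tested, so the separation is not read as a result.

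A call required an adjusted p under 0.05 in limma, over all 14582 genes tested, and at least a 2-fold difference. By that rule 5 of the 8 genes were called, 3 lower and 2 higher, against 1.93% of all genes (1.43% lower and 0.507% higher). The genes were picked with this contrast known, so nothing is read from that count. Counted from the lowest difference of all genes, Six2 stood at rank 12, Msx1 at 59, Twist1 at 140, Prrx1 at 186 and Msx2 at 486. Counted from the highest, Tbx4 stood at 13, Foxf2 at 16 and Alx4 at 3323, while the median gene differed by 0.02.

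Calls of Six2, Msx1 and Tbx4 held under each alternative in which they were tested, but normexp background correction with an offset shrank them to -1.83, -1.21 and 1.20. The call of Twist1 was lost under normexp (-0.65), under quantile normalization and with the deposited value table (-1.33 in both) and when any 1 of the 4 fetal arrays was left out, and that of Foxf2 under normexp (0.60) and without either fetal knockout array.

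**Figure D2:**
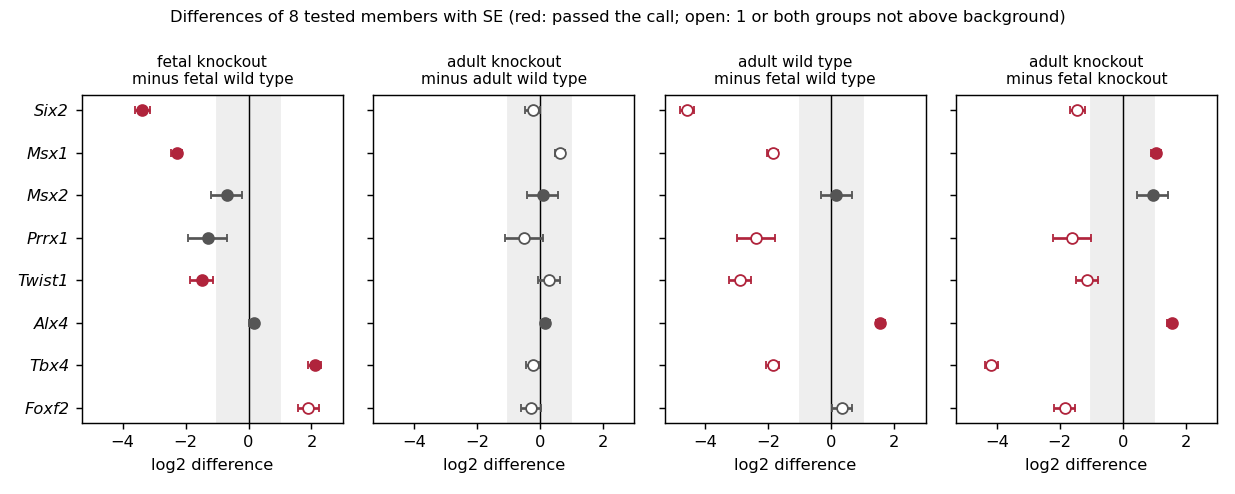
Log2 differences with SE (horizontal axes) of the 8 tested genes in 4 comparisons; red marks differences that passed the call, open circles those in which at least 1 sample was not well above background, and the grey band spans less than 2-fold. Six2 (-3.37) and Tbx4 (2.10) mark the ends of the fetal knockout comparison, no gene leaves the band between the adult samples, and most symbols of the adult against fetal panels are open.

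In fasted adult liver, none of the 8 genes was called between knockout and wild type in limma, and 1, Msx1, had an unadjusted p under 0.05. Its adjusted p in limma was under 0.05 as well, so it missed the call on the 2-fold rule alone. The share called over all genes was 7.47%, of which 4.94% higher and 2.52% lower. Msx1 was 0.64 ± 0.17 higher in the knockout, at least 1.33-fold in the reported processing since the wild type was not above background. Across the alternatives its difference was 0.09 to 0.98. Alx4 was measured in both samples and differed by 0.17 ± 0.14, the same value as between the fetal pools. Its difference of these differences, adult minus fetal, was 0.01 ± 0.20. Msx2 differed by 0.10 ± 0.49. Six2, Twist1, Prrx1, Tbx4 and Foxf2 were above background on no adult array, so their adult differences, -0.51 to 0.28, compare background readings. Without the first adult wild-type array, Prrx1 was called lower at -1.48 on the remaining background readings.

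The adult minus fetal difference of the knockout effect was called for 5 of the 8 genes, against 9.74% of all genes. The share was 6.01% for a higher and 3.73% for a lower effect in the adult, with 3 and 2 of the 8 genes. For all but Alx4, at least 1 adult array was below background, so the value is not read as a difference between stages for those genes.

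Fetal liver carried most of the signal of these genes. In wild type, adult Six2 was at least 5.58-fold below its fetal level, Msx1 at least 3.105-fold, Prrx1 at least 2.07-fold and Twist1 at least 1.74-fold lower. These bounds hold for the reported processing alone. Across the alternatives the smallest differences were -1.63 for Six2, -0.61 for Msx1, -0.37 for Prrx1 and -0.40 for Twist1. The calls of Msx1, Prrx1 and Twist1 were lost under normexp. Tbx4 was called lower too, with a difference of -1.85 ± 0.21, but its fetal signal allowed no bound above 1 and the sign turned under normexp. Alx4 was called higher in the adult, by 1.56 ± 0.14. Its unscaled signals, given above, lay closer together than that, and with each array set to its median the difference was 0.93. Msx2 differed by 0.16 ± 0.49 and Foxf2, below background in both, by 0.33 ± 0.32. The 6 calls stand beside 55.0% of all genes called, 27.3% higher and 27.7% lower in the adult.

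In the knockout samples, adult Tbx4 lay at least 4.27-fold below its fetal level in the reported processing. Its smallest difference across the alternatives was -1.30. Six2, Prrx1, Twist1 and Foxf2 were called lower as well, with differences of -1.84 to -1.13 and with no bound above 1. All but Foxf2 changed sign under normexp. Apart from those sign changes, the call was lost in 8 alternatives for Prrx1, 3 for Twist1 and 1 for Foxf2. Alx4 was higher by 1.56 ± 0.14, a call lost in 1 alternative, and its smallest difference was 0.92. Msx1 was higher in the adult by 1.06 ± 0.17 in this pair, opposite to its direction in wild type, and Msx2 differed by 0.96 ± 0.49. The Msx1 call was lost under the other scalings, where its difference was 0.59 to 0.85, under normexp (0.68) and without the first adult knockout array. Of the 8 genes 7 were called here, against 53.3% of all genes, 25.8% higher and 27.6% lower. The median difference of all genes between stages shifted by as much as -0.63 in wild type and -0.48 in knockout when arrays were set to their median instead.

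A list of 60 other mesenchymal transcription factors was set beside the members, among them their closest relatives. Of the 60, 48 were tested and 11 (22.9%) were called between the fetal pools, against 1.93% of all genes. Lower in the knockout were 9, among them Six4, Twist2, Alx1, Dlx2, Tbx15, Foxd1, Msc and Pax1, and higher were 2, Tbx5 and Tbx18. The other 37 were not called, 29 of the 48 differed by less than 0.5, and the median of the list was -0.04 against 0.02 over all genes. Of the 9 lower genes, 8 were not above background in the knockout pool, Twist2 being the exception. These 8 passed the filter on dim probes through the fetal wild-type pool alone. Their calls rest on fitted differences from background readings, and the bounds given for them carry no test. With normexp 3 of the list were called, and 7 to 12 when 1 array was left out, with the 7 reached without the second fetal wild-type array or either fetal knockout array.

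Relatives of a member did not always share its call. Alx1, a paired-type homeodomain factor of facial mesenchyme and a relative of Alx4, gave 119 and 103 in the wild-type pool and 3.49 and 3.66 in the knockout pool. It was thus at least 5.33-fold lower while Alx4 differed by 0.17 ± 0.14. Six4, a sine oculis family relative of Six2, was at least 2.14-fold lower. Twist2, the paralog of Twist1 in dermal mesenchyme, gave 538 and 551 against 173 and 162, a difference of -1.46 ± 0.26 (limma, adjusted p = 0.00863), close to that of Twist1. Prrx2, the paralog of Prrx1, differed by -0.19 ± 0.17 and was not called. The Six4 and Twist2 calls were each lost when some single arrays were left out.

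T-box genes went in both directions. Tbx5, the heart and forelimb sister of Tbx4, gave 65.6 and 42.2 in the wild-type pool and 169.6 and 171 in the knockout pool, a difference of 1.94 ± 0.30 (adjusted p = 0.00513). Tbx18, a factor of epicardium and body wall, rose by 1.16 ± 0.29 (adjusted p = 0.0287), with 1 of the 2 wild-type arrays above background, and that call was lost without any 1 fetal array. Tbx15, a factor of dermis and limb, gave 47.3 and 34.8 against 5.25 and 4.56 and was at least 1.95-fold lower. Tbx2 differed by 0.68 ± 0.18 and Tbx3 by -0.03 ± 0.04, and neither was called.

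Among forkhead and other factors of the list, Foxd1, a marker of kidney and body wall stroma, was at least 1.24-fold lower, and Pax1, a sclerotome factor, at least 3.25-fold lower. Foxf1, the sister of Foxf2 in visceral mesenchyme, differed by 0.29 ± 0.20 and was not called. Factors of liver and visceral mesenchyme were not called either: Tcf21 differed by 0.14 ± 0.29 and Hand2 by 0.27 ± 0.11. Meox2, another homeodomain factor of the list, differed by 0.00 ± 0.22 and was not called.

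**Figure D3:**
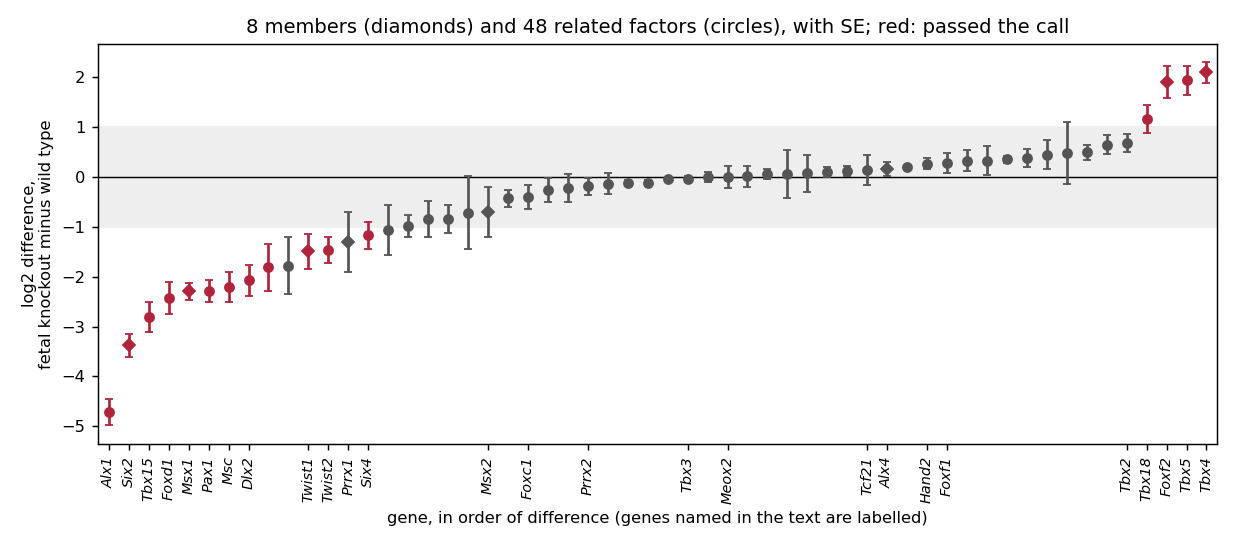
Log2 difference between fetal knockout and fetal wild type with SE (vertical axis) of the 8 tested members (diamonds) and 48 related factors (circles), in order of difference, with the genes named in the text labelled; red marks those that passed the call and the grey band spans less than 2-fold. Six2 lies second from the left after Alx1, Tbx4 and Tbx5 close the right end, and 29 of the circles lie within 0.5 of 0.

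For pathways that act on these factors, counts of calls stand beside the 1.93% called over all genes. Here and below, the share of all genes at an unadjusted p under 0.05 was not computed. Nothing is read from counts at that level. By limma, none of the 23 tested BMP pathway genes was called between the fetal pools. Their median was -0.05, and 10 had an unadjusted p under 0.05. None of 15 Hedgehog pathway genes was called, with 2 at an unadjusted p under 0.05 and a median of -0.06. Of 18 FGF and WNT signalling genes of the limb bud, 3 were called, all lower: Tfap2a, Wnt3 and Wnt5a, with a list median of -0.30 and 1 to 4 calls when 1 array was left out. Tfap2a, an ectoderm and neural crest factor, gave 103 and 96.4 against 9.12 and 9.20 and was at least 4.78-fold lower. Wnt5a, a secreted ligand of limb and facial mesenchyme, gave 366 and 367 against 120 and 101, a difference of -1.49 ± 0.29, and its call was lost without any 1 fetal array. Wnt3 was at least 1.15-fold lower, a call that single fetal arrays also decided.

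The nearest protein-coding gene on each side of the 9 members was examined in the same comparison. Of these 18 neighbours 12 were tested and limma called none. An unadjusted p under 0.05 was reached by 4. Beside Tbx4, Tbx2 differed by 0.68 ± 0.18 and Brip1 by 0.18 ± 0.13. Beside Foxf2, the forkhead genes Foxq1 and Foxc1 differed by -0.62 ± 0.15 and -0.41 ± 0.24, so both lay on the other side of 0 from Foxf2. Beside Alx4, Ext2 differed by -1.01 ± 0.37 and Cd82 by 0.51 ± 0.03. Beside Msx1, Cytl1 and Stx18 differed by -0.01 ± 0.53 and 0.06 ± 0.04, and beside Six2, Srbd1 differed by -0.04 ± 0.04.

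The genes whose profile over the 8 arrays came closest to the mean profile of the 8 tested members were Frzb, Fgfr1, Tcp1, Dagla, Nt5c2, Eif4a3, Prdm4, Isl1, Zfp207 and Mitd1, at a root mean square distance of 0.10 to 0.16 log2 units. None of them was called between the fetal pools. The members themselves lay 0.60 (Twist1) to 1.38 (Alx4) from that mean, so it describes no single member closely. Nearest genes were therefore also found for each member, a rule added after the values had been seen. Nearest to Six2 was Fzd10, a WNT receptor, at 0.28, with 215 and 220 in fetal wild type against 16.7 and 33.1 in fetal knockout. Next to it came the keratin Krt14, at 0.48, and the desmosome gene Pkp1, at 0.53. Nearest to Msx1 were Tmprss13 and Tmprss4, membrane serine proteases, and Anxa8, at 0.29 to 0.31, all lower in the fetal knockout. Nearest to Tbx4 were Cst9 at 0.10, the cardiac kinase gene Tnni3k at 0.21 and Tbx5 at 0.34, and nearest to Foxf2 was Tbx18 at 0.28. These distances rest on 8 arrays of 4 samples and are a description.

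Marker genes of liver cells and of tissues that lie near the fetal liver were examined beside the members. Their counts of calls stand beside the 1.93% of all genes called between the fetal pools. Counts at an unadjusted p have no such share beside them, and nothing is read from those. Lists of liver cells held no call between the fetal pools. Of 14 stellate cell and septum transversum genes limma called none, with 5 at an unadjusted p under 0.05 and a median of -0.02. Leaving out the first fetal wild-type array gave 1 call, lower. Their summed level was 64.5 and 65.4 multiples of the 75th percentile in wild type and 71.4 and 68.5 in knockout. Of 9 mesothelium genes none was called, with 3 at an unadjusted p under 0.05 and a median of 0.16. The 8 hepatoblast genes, with 5 at an unadjusted p under 0.05, and the 8 erythroid genes, with 4, held no call either, and their medians were 0.05 and 0.22. All 8 genes of each of those lists were above background on both arrays of both fetal pools, in accord with the tissue label.

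Most epidermal genes were lower in the fetal knockout pool, as Six2, Msx1 and Twist1 were. Of 11 tested, 7 were called lower: Krt1, Krt5, Krt10, Krt14, Krt15, Krtdap and Grhl3. Not called were Sfn (-1.14 ± 0.50), Lor (-0.82 ± 0.08), Perp (-0.64 ± 0.03) and Trp63, which lay above 0 (0.18 ± 0.07). The list median was -1.40 and the summed level was 32.9 and 33.0 in wild type and 13.9 and 13.7 in knockout. Krt14, the basal layer keratin, differed by -2.30 ± 0.23, Krtdap by -2.74 ± 0.22, and Krt1 was at least 4.52-fold lower. In the fetal knockout pool 10 of the 11 were above background on both arrays, as were 5 in adult wild type and 4 in adult knockout. The summed level was 74.7 and 77.3 in adult wild type and 55.4 and 55.5 in adult knockout. Neither measure is therefore particular to epidermis.

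Some skeletal muscle genes were lower too. Of 13 tested, 4 were called, all lower: Pax3 at least 5.20-fold, Myod1 at least 1.17-fold, Myog by -1.73 ± 0.18 and Chrna1 by -1.29 ± 0.32, the last lost without any 1 fetal array. The other 9 were not called, and 3 of them lay above 0: Ckm (0.76 ± 0.19), Myh8 (0.50 ± 0.12) and Des (0.15 ± 0.24). The list median was -0.81 and the summed level was 10.74 and 10.67 in wild type and 7.40 and 7.30 in knockout. Of 14 body wall and limb fibroblast genes 2 were called lower, the retinoic acid binding protein genes Crabp1 (-1.77 ± 0.21) and Crabp2 (-1.05 ± 0.06), with a median of -0.16 and summed levels of 54.1 and 54.6 in wild type and 49.5 and 48.8 in knockout. Of 9 nerve and neural crest genes 2 were called lower, among them Stmn2 (-1.12 ± 0.20), with a median of -0.33, and the Stmn2 call was lost without single fetal arrays.

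Heart and lung genes were higher in the fetal knockout pool, as Tbx4 and Foxf2 were. Of 10 heart muscle genes 7 were called higher, among them the contractile genes Myh6 (2.60 ± 0.46), Myl7 (2.44 ± 0.16) and Myl4 (1.45 ± 0.05) and the atrial peptide gene Nppa (2.15 ± 0.11). The heart count was 4 to 8 when 1 array was left out, and the lowest, 4, came without the second fetal knockout array, where Myh6 was not called. The list median was 1.35 and the summed level was 70.4 and 70.8 in wild type and 206 and 208 in knockout. Of 5 lung genes 3 were called higher: the surfactant gene Sftpc (2.42 ± 0.31), Tbx5, and Nkx2-1, at least 1.59-fold, the last lost without any 1 fetal array. The list median was 1.45 and the summed level was 6.28 and 6.34 in wild type and 10.4 and 10.1 in knockout. Tbx5 also stands in the list of related factors.

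Other lists held 1 call or none. No call was made among 9 cartilage genes, none with an unadjusted p under 0.05 in limma and with a median of -0.21, among 4 tendon genes, 1 at an unadjusted p under 0.05, with a median of 0.00 and 1 call without the first fetal knockout array, or among 5 gut and stomach mesenchyme genes, 1 at an unadjusted p under 0.05 and with a median of -0.33. Of 3 osteoblast genes Ibsp was called lower, at least 1.26-fold, with a list median of -1.70, and of 6 kidney and gonad genes Foxd1, with a median of -0.06. Without the first fetal wild-type array 3 kidney and gonad genes were called. Over all 19 lists 39 of 225 tested genes were called between the fetal pools, 28 lower and 11 higher. The share over all genes was 1.93%. The lists were chosen with earlier results known, so nothing is read from that count. The part of epidermis, skeletal muscle, heart or lung RNA in the differences of the members was not tested.

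**Figure D4:**
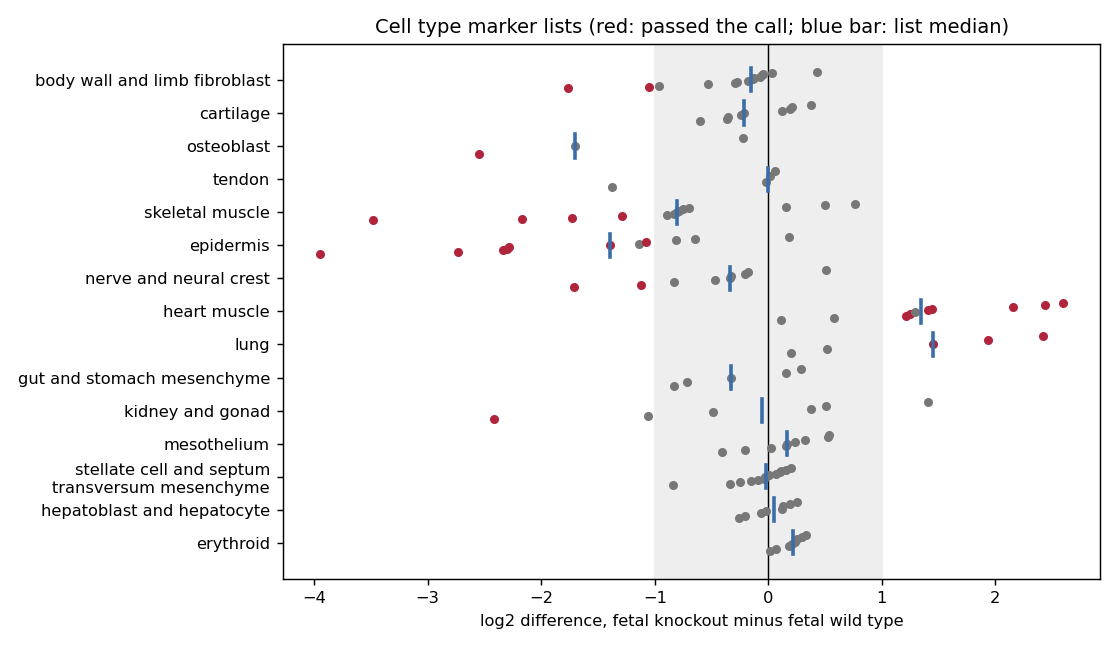
Log2 difference between fetal knockout and fetal wild type (horizontal axis) of each tested gene in 15 marker lists, 1 point a gene; red points passed the call, blue bars are list medians and the grey band spans less than 2-fold. Epidermis and skeletal muscle hold most of the lower points (medians -1.40 and -0.81), heart and lung the higher ones (medians 1.35 and 1.45), and the liver cell lists stay inside the band.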

How the data were processed

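The deposited scanner files of 8 one-colour Agilent arrays gave, per the file headers, the processed signal, median signal and background of each spot as linear intensity, from Feature Extraction. Per the labels' protocols, 200 ng of RNA a sample was labelled with Cy3. The deposited value table, a linear intensity with no stated method of preparation in the labels or headers, served as an alternative. Its column medians were all 18.1, and log2 of it correlated at 0.995 to 0.999 with the processed signal.

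Values are log2 of the processed signal minus the array's 75th percentile. Control spots were left out, flagged outlier spots (92 to 188 an array) were set missing, and spots of a probe were averaged. Accessions without version were named through the RefSeq table of GRCm38.p6: 26762 probes had a symbol, 28919 had none. The brightest probe stood for a gene. Differences were fitted in R 4.3.3 with limma 3.58.1 (lmFit, eBayes with trend) on 8 arrays in 4 groups, adjusted by Benjamini-Hochberg over 14582 genes, and tested on simulated data. Precision is limited by the number of arrays, 2 a sample. Array numbers do not pair samples: deviations of same-row arrays correlated at -0.14 to 0.08. The members and lists were chosen with earlier results of these data known. Named genes were the members, up to 4 called genes a list by size of difference and the 10 nearest profiles; further genes named (other called genes, relatives, neighbours and genes nearest to 1 member) were chosen after their values were seen. Alternatives changed background correction, scaling, filter, probe rule, trend, replicate block and the arrays used. Some list genes are not reported here.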

Additional observations from a re-analysis of the deposited data

How the results depend on the processing

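Each group is 1 RNA sample on 2 arrays, so no alternative tests biological variation, and signals under 22.7 to 29.3, by array, were below background in the adult. Of the 8 members, 5 were called between the fetal pools, 0 between the adult samples, 6 and 7 between stages in wild type and knockout, and 5 for the difference of knockout effects. Normexp gave 3, 2 and 1 for the fetal and stage comparisons and 3 for the last, and 21 list genes called, 19 of them among the 39 reported; it turned Tbx4 in the wild-type stage comparison to 0.036, and Six2, Prrx1 and Twist1 in the knockout one to 0.17, 0.13 and 0.18. Asking for signal on all 8 arrays kept Alx4 alone of the members and gave 0, 1, 1 and 0 calls and 3 list genes, by its own construction. Otherwise the cause of these changes was not tested. Leaving out 1 array gave 3 to 6, 0 to 1, 6 to 7, 5 to 7 and 4 to 6 calls and 28 to 41 list genes. With the array's slide row as a replicate block the calls were 5, 0, 6, 6 and 5, and 39 list genes; the call of Prrx1 was lost in the knockout stage comparison. The 4 fetal arrays alone, added after the data had been seen, gave 6 members and 44 list genes. Over all genes the fetal calls numbered 282, against 67 under normexp, 26 with signal on all 8 arrays and 193 to 304 with 1 array left out.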
